A study of Arabidopsis thaliana with 4 samples.

Results

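The 6 genes described here were grouped as defence-type secreted protein and stress genes and were chosen by their signals, which were higher in jaw-D than in Columbia leaves. They comprise a serine proteinase inhibitor gene (AT2G38870), a legume lectin-like gene (AT3G16530), a basic secretory protein gene (AT2G15220), a cysteine-rich repeat secretory protein gene (AT5G48540), AT1G65500, for which no family is given here, and an HSP20-like gene (AT4G21870). They are 6 of 13286 genes that could be named on the arrays. Each was measured by 1 probe set that the array annotation pairs with that gene alone. The probe set of AT2G15220 is of a design that can also bind related transcripts. The difference between jaw-D and Columbia chose the genes, so it is given below as a description. How many of the 6 passed the test across all probe sets is stated beside the share of all probe sets that passed, and nothing is read from it. The array annotation lists all 6 only by locus, and the family names are general background knowledge.

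The RNA was taken from expanded leaves, and all Arabidopsis thaliana plants had been kept in short days. The jaw-D leaves (2 arrays) carry a dominant mutation that raises miR319a, a microRNA that directs the cutting of mRNAs for a group of TCP transcription factors. The Columbia leaves (2 arrays) are of the reference accession and had the same growth conditions per the labels. No plant age, pooling, or number of jaw-D lines is given in the sources used here, and the labels do not say whether arrays of a genotype came from separate plants, so a p-value here reflects only how far these arrays vary, which may be technical. Each array reports a signal per probe set in arbitrary units, already scaled by the authors. Signals of different probe sets cannot be set against each other as amounts of RNA.

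As background, leaves defend themselves partly by secreting proteins into the cell wall space. Proteinase inhibitors block digestive enzymes of insects and proteases of microbes, lectins bind sugars, and cysteine-rich repeat proteins share a fold with an antifungal protein of Ginkgo seeds. Basic secretory proteins include a pathogen-induced protein of tobacco. The TCP factors that miR319 restrains promote leaf maturation and the synthesis of jasmonate, a wound hormone that induces many defence genes. Small heat shock proteins of the HSP20 family are chaperones that hold unfolding proteins, and as a family they are not typical secreted defence proteins, so AT4G21870 fits the description of a secreted gene product only by its grouping here.

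The arrays were alike in overall level. Median signals were 74.6 and 76.5 on the jaw-D arrays, against 76.7 and 77.2 on the Columbia arrays. Signals under 16, the dimmest part of the range, made up 22.3% and 21.7% of probe sets in jaw-D and 17.8% and 18.4% in Columbia. Both measured photosynthesis genes of the 11 on the leaf list, RCA and LHCB4.1, were bright, with summed signals of 21258 and 17984 in jaw-D and 20554 and 23859 in Columbia, and the 3 measured root markers of 6, PYK10, EXPA7 and EXPA18, summed to 72.5 and 70.2 in jaw-D and to 92.0 and 79.2 in Columbia. The 4 measured epidermal markers of 8 summed to 149 and 164 in jaw-D and to 176 and 138 in Columbia, and the 3 measured senescence markers of 8 to 179 and 212 in jaw-D and to 176 and 240 in Columbia. None of these lists had a called gene by limma, where 0.189% of all probe sets were called. An unadjusted p under 0.05 was reached by 2 of their 12 measured genes, against 13.0% of all probe sets. Of 6 flower and 5 vascular markers, 0 were named in the annotation used here. For a GAPDH control, the 3′ signal divided by the 5′ signal, a sign of RNA integrity, was 2.06 on jaw-D array 1 and 1.36 on jaw-D array 2, against 1.41 and 1.43 on the Columbia arrays. A second GAPDH design gave 1.16 and 1.24 on the jaw-D arrays, against 1.20 and 1.04 on the Columbia arrays. Of the 2 GAPDH designs, jaw-D array 1 stood apart in the first only. Of the actin ratios, the first design gave 11.9 and 8.74 in jaw-D and 5.28 and 10.8 in Columbia. The second actin design gave 2.56 and 1.93 in jaw-D and 2.06 and 2.07 in Columbia, and jaw-D array 1 was the highest in both. The ubiquitin ratios ran from 1.92 to 4.52 over both designs, with Columbia array 2 the highest in each. A 25S rRNA control read 2760 and 408 on jaw-D arrays 1 and 2, against 3146 and 800.4 on Columbia arrays 1 and 2, higher on array 1 of both genotypes.

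All 6 genes had both jaw-D arrays above both Columbia arrays, an order found in 17.5% of all 22746 probe sets, and all 6 were at least 2-fold higher in jaw-D on the log2(signal + 16) scale, as were 0.602% of all probe sets. Their log2 differences, jaw-D minus Columbia, ran from 1.30 to 2.51 with a median of 1.63, against a median of -0.04 over all probe sets. By limma with Benjamini-Hochberg adjustment over all probe sets, 2 of the 6 had an adjusted p under 0.05, where 0.189% of probe sets did in either direction and 0.0352% did with a higher jaw-D signal. All of these counts follow from how the genes were picked. In leaf RNA as a whole, more cells of a type and more RNA per cell cannot be told apart.

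**Figure D1:**
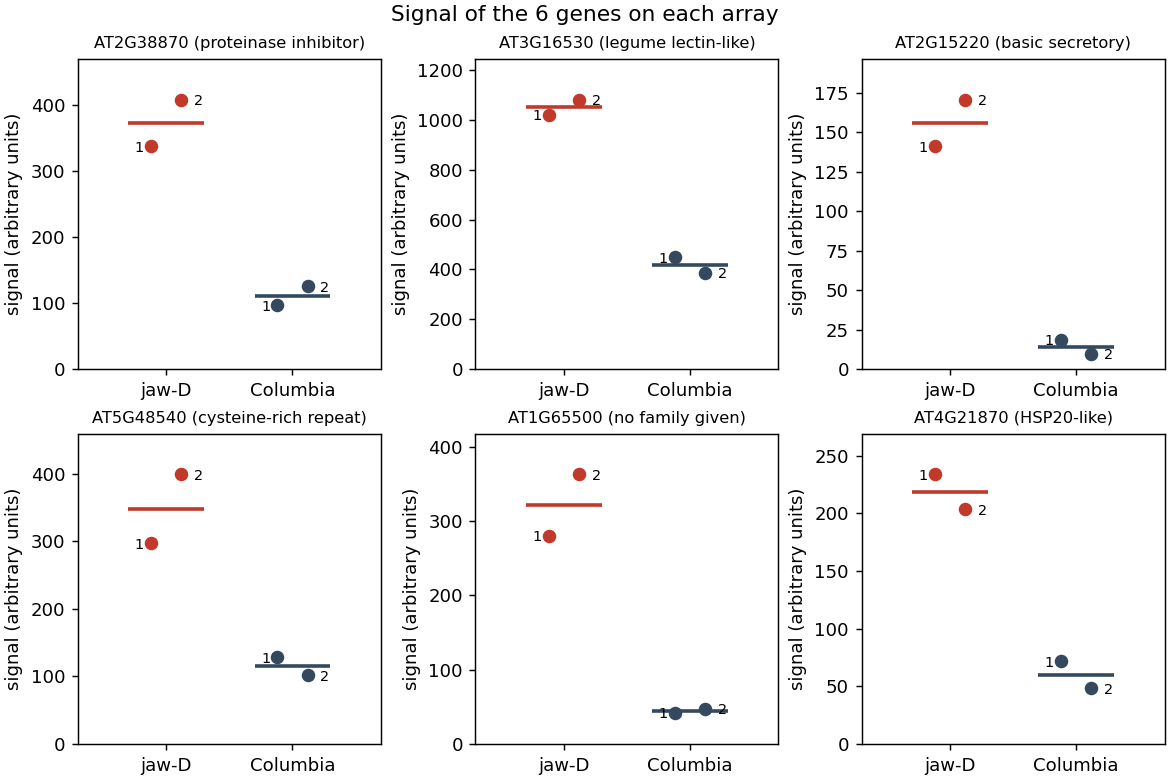
Signal (arbitrary units, linear axis from 0) of each of the 6 genes on the 2 jaw-D arrays (red, left) and the 2 Columbia arrays (dark, right); the digit beside a point is the array number and the line is the mean. In each panel both jaw-D points lie above both Columbia points. By ratio the closest pair is in AT3G16530, at 1019 in jaw-D and 449.5 in Columbia, 2.27 times apart.

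**Figure D2:**
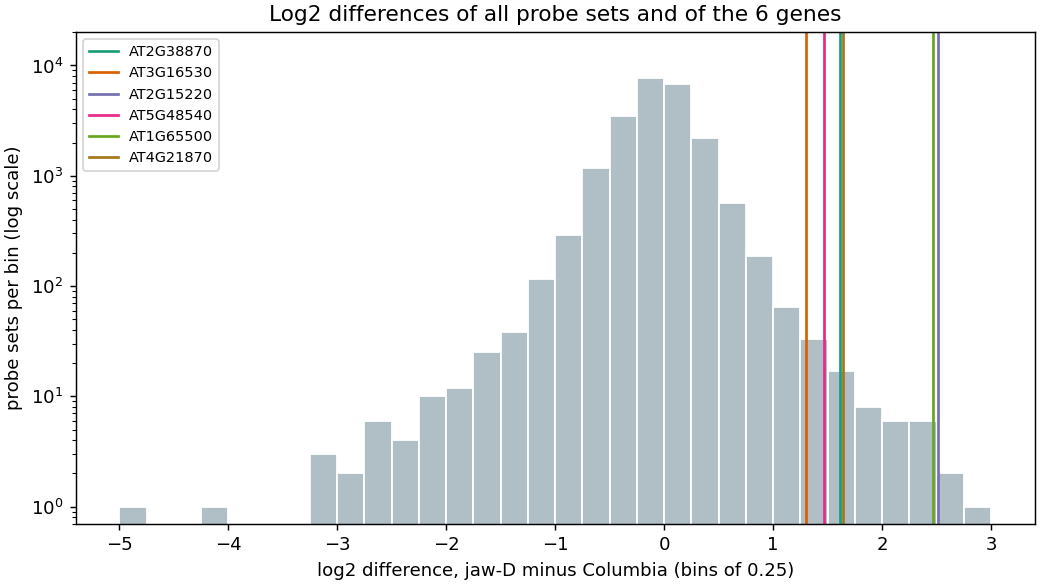
Number of probe sets (log axis) by log2 difference, jaw-D minus Columbia, in bins of 0.25, with a vertical line for each of the 6 genes. The lines lie between 1.30 and 2.51, in the upper tail of the distribution, where 65 probe sets reach 1.30 or more.

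AT2G38870 encodes a proteinase inhibitor of the potato inhibitor I family, small proteins that block serine proteinases. Its signal was 337 and 408 on the jaw-D arrays, against 97.1 and 126 on the Columbia arrays. The lowest jaw-D array was 2.68 times the highest Columbia array, so the genotypes did not overlap. Means were 373 ± 50.0 in jaw-D and 111 ± 20.2 in Columbia (SD, n = 2 arrays each), a log2 difference of 1.61 with an SE of 0.19. Of the 5 other potato inhibitor I genes on the list, 2 were measured, and both were dim. AT3G46860 read 16.9 and 14.4 in jaw-D and 10.2 and 3.1 in Columbia, a log2 difference of 0.50 (SE 0.20) that was not called (adjusted p = 0.374 by limma) and was 0.27 without Columbia array 2. AT2G38900, which is close to AT2G38870 on chromosome 2, read at most 1.6 on any array. At that level the array gives no usable difference for it.

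Inhibitors of other structural classes were also listed. Of 17 such genes, which included trypsin inhibitors and cystatins, inhibitors of cysteine proteinases, 8 were measured. By limma 0 of the 8 passed the adjusted threshold, against 0.189% of all probe sets, and 0 had an unadjusted p under 0.05, against 13.0%. At a share of 0.189% the lack of a call among 8 genes says little about them. Their median log2 difference was 0.21 against -0.04 over all probe sets. Both jaw-D arrays lay above both Columbia arrays for 2 of the 8, against 17.5% of all probe sets, and below for 0, against 26.5%. AT2G43550, of the trypsin inhibitor family, read 1356 and 1243 in jaw-D and 1215 and 780.2 in Columbia, with a log2 difference of 0.41 (SE 0.24) that was 0.72 without Columbia array 1 and 0.09 without Columbia array 2. AT2G43530, of the same family, had 0.24 (SE 0.24), and the cystatin gene CYS1 had -0.03 (SE 0.19), a difference that was 0.10 without Columbia array 1 and 0.14 without jaw-D array 2.

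AT3G16530 encodes a legume lectin-like protein, and its transcript is known to respond to chitin, a fungal cell wall sugar. It read 1019 and 1081 on the jaw-D arrays, against 449.5 and 386 on the Columbia arrays. Its arrays of each genotype lay close together, with a ratio of 1.06 between the jaw-D arrays and 1.16 between the Columbia arrays. Means were 1049.7 ± 43.6 in jaw-D and 418 ± 45.0 in Columbia (SD, n = 2 each), and the log2 difference was 1.30 (SE 0.16). This was the smallest difference of the 6 genes, and it had the smallest SE.

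A relative of AT3G16530 changed in the opposite direction. AT5G03350, another legume lectin-like gene and known to respond to salicylate, read 759 and 797.5 in jaw-D, against 3680.5 and 4879 in Columbia. It fell by 2.42 on the log2 scale (SE 0.19, adjusted p = 0.0237 by limma), and this call was lost without any 1 array, where the adjusted p ran from 0.154 to 0.371 and the log2 difference from -2.62 to -2.22. It was the only called gene among the 5 measured of 7 other listed lectin-like genes, where 0.189% of all probe sets were called. AT1G53060 and AT1G53070 had log2 differences of 0.11 and -0.14 with overlapping genotypes, and both changed sign when 1 array was left out. AT1G53080 and AT1G07460 read at most 6.5 on any array and had -0.22 and -0.20.

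AT2G15220 encodes a basic secretory protein, of a family with a fold like that of zinc-dependent peptidases. It read 141 and 171 on the jaw-D arrays, against 18.7 and 10.0 on the Columbia arrays. The Columbia signals were near the dim end of the range, while both jaw-D signals were well above them, by 7.55 times from the lowest jaw-D to the highest Columbia array. Means were 156 ± 20.9 in jaw-D and 14.3 ± 6.15 in Columbia (SD, n = 2 each), a ratio of 10.9 between mean signals. On the log2(signal + 16) scale the difference was 2.51 (SE 0.20), a 5.70-fold difference. Because the Columbia signal was low, the size depended on the pseudocount, with 3.41 at a pseudocount of 1 and 1.49 at a pseudocount of 64. The probe set is of a design that can also bind related transcripts.

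The other basic secretory protein gene that was measured, of 2 on the list, was AT2G15130. It read 1.5 and 2.3 in jaw-D, against 11.2 and 16 in Columbia, the opposite order to AT2G15220, with a log2 difference of -0.72 (SE 0.16). It was not called (adjusted p = 0.198 by limma, unadjusted p = 0.00441), and all of its signals lay at or below 16.

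AT5G48540 encodes a cysteine-rich repeat secretory protein, which shares its repeated domain with the outer part of a large family of receptor-like kinases. It read 297 and 399 on the jaw-D arrays, against 129 and 101 on the Columbia arrays. The jaw-D arrays differed by 1.35 times, the widest jaw-D spread of the 6 genes, and the genotypes stayed apart. Means were 348 ± 72.5 in jaw-D and 115 ± 19.2 in Columbia (SD, n = 2 each), with a log2 difference of 1.47 (SE 0.21). Without jaw-D array 2, the brighter of the pair, it was 1.26.

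Of the 11 other cysteine-rich repeat genes on the list, 5 were measured. By limma 0 of the 5 passed the adjusted threshold, against 0.189% of all probe sets, and 3 had an unadjusted p under 0.05, against 13.0%. AT3G22060 had the same order as AT5G48540, with 156 and 224 in jaw-D and 71.9 and 85.9 in Columbia. Its log2 difference was 1.10 (SE 0.21, adjusted p = 0.157 by limma), and it was called only when dim probe sets were left out, with an adjusted p of 0.0217. The other 4 stand close together on chromosome 1 and had negative log2 differences, except that AT1G63550 had 0.03 with quantile normalization in place of -0.14. AT1G63600 read 4.2 and 3.8 in jaw-D and 14.6 and 17.2 in Columbia, a log2 difference of -0.67 (SE 0.15). AT1G63580 had -0.58 (SE 0.18) and AT1G63590 had -0.24 (SE 0.21).

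AT1G65500 read 280 and 363 on the jaw-D arrays, against 41.6 and 47.1 on the Columbia arrays. The Columbia arrays differed by only 1.13 times, and the lowest jaw-D array was 5.94 times the highest Columbia array. Means were 322 ± 58.8 in jaw-D and 44.4 ± 3.89 in Columbia (SD, n = 2 each), a log2 difference of 2.47 (SE 0.18), or 5.56-fold on that scale. Together with AT2G15220 it stood apart from the other 4 genes, whose log2 differences ended at 1.64. With a pseudocount of 64 it had the largest difference of the 6, at 1.82.

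The genes on either side of AT1G65500 did not share its pattern. AT1G65490, directly before it, was the opposite in order, with 424 and 379 in jaw-D and 562 and 716 in Columbia. Its log2 difference was -0.64 (SE 0.18), which was not called (adjusted p = 0.265 by limma, unadjusted p = 0.0126). AT1G65510, directly after it, read 31.0 and 27.4 in jaw-D and 34.6 and 19.0 in Columbia, so that the genotypes overlapped. Only 2 of the 8 listed neighbours were measured.

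AT4G21870 encodes an HSP20-like protein. It read 234 and 203 on the jaw-D arrays, against 71.6 and 48.1 on the Columbia arrays. It was the only gene of the 6 with the higher jaw-D signal on array 1. That array had the highest ratio in the first GAPDH design and both actin designs, but not in the second GAPDH or either ubiquitin design. Without that array its log2 difference was 1.55, against 1.64 (SE 0.20) with all arrays, and whether RNA integrity has a part in the value was not tested. Means were 219 ± 21.6 in jaw-D and 59.8 ± 16.6 in Columbia (SD, n = 2 each).

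Of the 14 other small heat shock genes on the list, 7 were measured, with log2 differences from -0.47 to 0.07. By limma 0 of the 7 passed the adjusted threshold, against 0.189% of all probe sets, and 1 had an unadjusted p under 0.05, against 13.0%. Their median log2 difference was -0.19 against -0.04 over all probe sets. ATHSP22.0 read 23.5 and 32.4 in jaw-D and 48.0 and 41.6 in Columbia, a log2 difference of -0.47 (SE 0.17, adjusted p = 0.342). AT2G19310, the brightest of them, read 229 and 178 in jaw-D and 225 and 217 in Columbia, with a log2 difference of -0.12 and overlapping genotypes. AT1G54050 had -0.31 (SE 0.15), AT2G29500 had -0.40 (SE 0.32), or -0.75 to -0.04 without 1 array, and AT5G37670 had -0.19 (SE 0.18). AT1G53540 and AT5G51440 had -0.04 and 0.07, the sign of each depended on the arrays kept, and AT1G53540 had 0.12 with quantile normalization. The HSP70 gene AT3G09440, the 1 measured of 7 other heat shock chaperone genes, had 0.09 (SE 0.17).

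**Figure D3:**
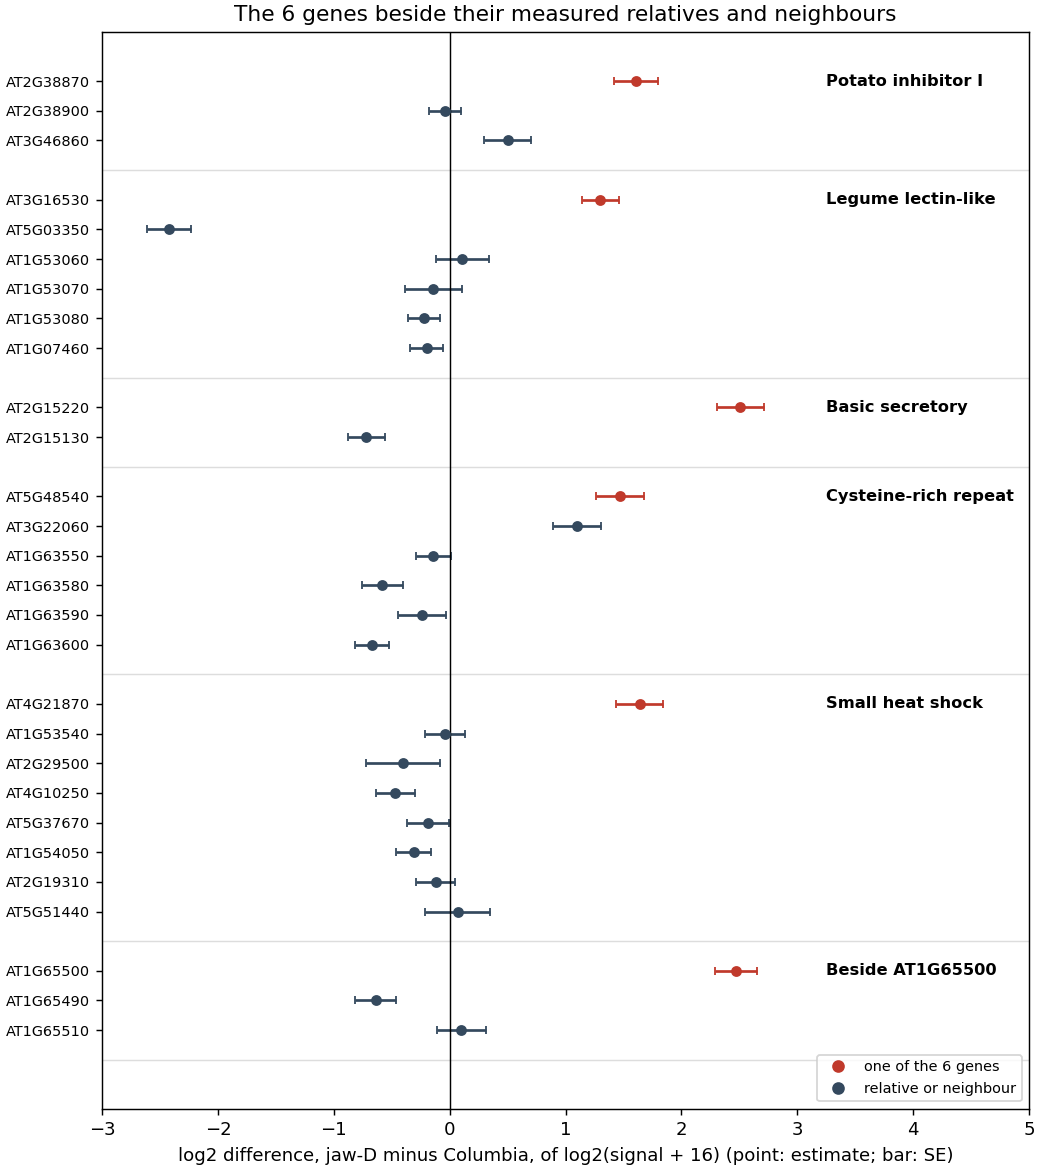
Log2 difference, jaw-D minus Columbia, on the log2(signal + 16) scale (points, with SE as bars) for the 6 genes in red and, under each, its measured relatives in dark; the last group holds the neighbours of AT1G65500. The red points lie at 1.30 or more, AT3G22060 is the nearest relative to them at 1.10, and AT5G03350 is far to the left at -2.42.

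Over the 22 measured relatives and neighbours of the 47 listed, 17 had a negative and 5 a positive log2 difference, and the counts were 15 and 7 with quantile normalization. The share of negative differences over all probe sets was 56.9%, and 50.1% with quantile normalization. Limma called 0 of them higher and 1 lower, AT5G03350, where 0.154% of all probe sets were called lower, and 8 had an unadjusted p under 0.05, as did 13.0% of all probe sets. The jaw-D arrays were both lower than either Columbia array for 11 of the 22, against 26.5% of all probe sets, and both higher for 2 of the 22, against 17.5%. Their median log2 difference was -0.20 against -0.04 over all probe sets, and -0.10 with quantile normalization. Many of these relatives were dim, and the share of signals under 16 was higher on both jaw-D arrays. The part of that difference between arrays in these counts was not tested. With no test of a family as a whole, none of these counts shows that a family moved.

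Pathogenesis-related, defensin and thionin genes, the classical secreted products of leaf defence, were mixed. Of 14 on the list, 7 were measured, with 4 negative and 3 positive log2 differences and a median of -0.60. An unadjusted p under 0.05 by limma was reached by 6 of the 7, against 13.0% of all probe sets. The genotypes did not overlap for any of the 7. Both jaw-D arrays lay above both Columbia arrays for 3, against 17.5% of all probe sets, and below for 4, against 26.5%. PDF1.2b, a jasmonate-responsive defensin gene, was measured by a probe set whose design can also bind related transcripts. It read 66.7 and 67.3 in jaw-D, against 209 and 222 in Columbia. Of the 7, PDF1.2b alone was called, where 0.154% of all probe sets were called lower. It fell by 1.48 on the log2 scale (SE 0.14, adjusted p = 0.0420 by limma). With the replicate block its adjusted p was 0.0518, and without 1 array it was 0.246 to 0.416. The chitinase gene CHI read 483 and 465 in jaw-D and 58.2 and 300.4 in Columbia, so its log2 difference of 1.68 carried an SE of 0.63 from the spread between the Columbia arrays. It was 0.63 without Columbia array 1 and 2.72 without Columbia array 2. The thionin gene AT1G66100 read 1085.5 and 700.2 in jaw-D and 1622 and 1094.5 in Columbia, a log2 difference of -0.60 (SE 0.28) that ran from -0.91 to -0.29 without 1 array.

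Genes of the response to microbial patterns were thinly covered, with 2 measured of 16. The receptor-like kinase gene AT1G51890 read 59.7 and 70.3 in jaw-D and 16.9 and 49.9 in Columbia, a log2 difference of 0.80 (SE 0.33). It was 0.29 without Columbia array 1 and 1.30 without Columbia array 2. WRKY53, a transcription factor gene also listed for senescence, read 79.7 and 110 in jaw-D and 84.1 and 141 in Columbia and had -0.19 (SE 0.27). Limma called 0 of the 2, where the called share over all probe sets was 0.189%. Before adjustment, p was above 0.05 for both genes, while it fell below 0.05 for 13.0% of all probe sets. With only 2 genes, the lack of a call says little about them.

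The 6 genes are spread over all 5 chromosomes, as their locus names show, and only AT2G15220 and AT2G38870 share one. The nearest measured gene on each side of every member was looked up in the gene order of the TAIR10.1 reference, a comparison added after the values were seen. Of these 12 genes, 6 stood directly next to their member. None was called by limma, against 0.189% of all probe sets, and 3 had an unadjusted p under 0.05, against 13.0%. Their log2 differences ran from -0.64, for AT1G65490, to 0.73. The highest was AT2G38860, directly before AT2G38870, which read 451 and 478 in jaw-D and 237 and 315 in Columbia (SE 0.18, adjusted p = 0.231). Both jaw-D arrays lay above both Columbia arrays for 3 of the 12, against 17.5% of all probe sets, and below them for 5, against 26.5%.

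**Figure D4:**
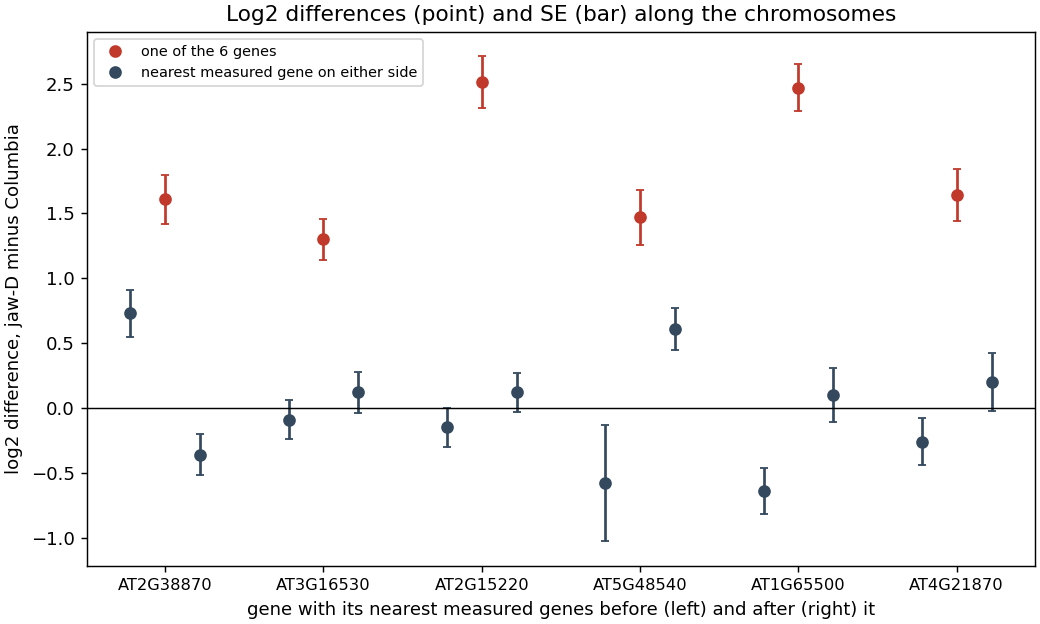
Log2 difference, jaw-D minus Columbia (points, with SE as bars), of each of the 6 genes in red and of the nearest measured gene before and after it in dark. The red points lie at 1.30 to 2.51 and the dark points between -0.64 and 0.73.

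The replicate arrays split the 6 genes in different ways. Array 2 read higher than array 1 for 5 of the 6 in jaw-D, all but AT4G21870, against 53.2% of all probe sets. In Columbia, array 2 read higher for 2 of the 6, AT1G65500 and AT2G38870, against 49.8% of all probe sets. The widest gap between arrays of a genotype was 1.87 times, for AT2G15220 in Columbia, where its signal was dim. For every one of the 6 this gap was smaller than the gap between the genotypes, which was at least 2.27 times. Picking the genes for higher jaw-D signal on these same arrays favours that order, so nothing is read from it.

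The profile over the 4 arrays was compared with those of 13280 other named genes, by the Euclidean distance between log2(signal + 16) values centred on each gene's own mean and the average of the 6. The 6 themselves lay at distances of 0.39 to 0.70 from their average, and 13 other genes lay within 0.70. The nearest was AT2G43590, a chitinase family gene, at 0.27, which read 75.3 and 107 in jaw-D and 21.2 and 15.9 in Columbia. AT2G43590 is also among the pathogenesis-related and defensin genes counted above, with a log2 difference of 1.62 (SE 0.20). EXLB1, an expansin-like cell wall gene, followed at 0.35, with 223 and 234 in jaw-D and 74.4 and 67.2 in Columbia.

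AT3G17050 lay at 0.48, with 76.2 and 52.4 in jaw-D and 6.7 and 2.1 in Columbia. AT1G26420, of the berberine bridge enzyme-like family of oxidases, lay at 0.51, with 41.9 and 66.7 in jaw-D and 8.4 and 11.0 in Columbia. PTL, a trihelix transcription factor gene known for its role in flower development, lay at 0.54, with 27.2 and 39.6 in jaw-D and 3.6 on both Columbia arrays. Since the average profile is a difference between genotypes, genes near it share that difference by construction. No test was made of the likeness, which rests on 4 arrays.

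**Figure D5:**
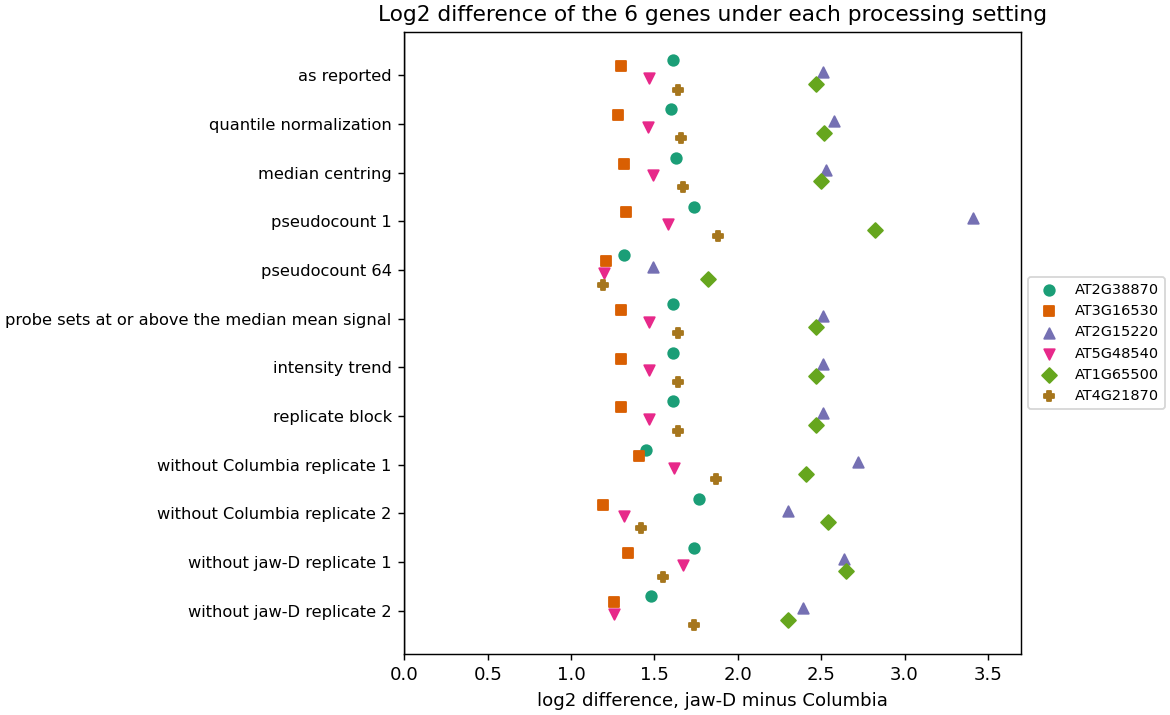
Log2 difference, jaw-D minus Columbia, of the 6 genes (one marker each) under the reported setting, at the top, and 11 others. The values stay between 1.19 and 3.41, and AT1G65500 and AT2G15220 lie above the other 4 genes under every setting drawn, by the least with a pseudocount of 64.

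Under the other processing settings AT3G16530 moved the least, from 1.19 to 1.41, and AT2G15220 the most, from 1.49 to 3.41. The ranges were 1.32 to 1.77 for AT2G38870, 1.20 to 1.67 for AT5G48540, 1.19 to 1.88 for AT4G21870 and 1.82 to 2.82 for AT1G65500. Leaving out 1 array at a time gave 2.30 to 2.65 for AT1G65500 and 1.42 to 1.87 for AT4G21870. The number of the 6 past the adjusted threshold ran from 0 to 6 over the settings, as the share of all probe sets past it ran from 0 to 2.56%, and this count does not test the difference that chose them. Without any 1 array limma called 0 probe sets in all, with 1978 to 2492 at an unadjusted p under 0.05.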

How the data were processed

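The members and gene lists were chosen with earlier results of these data known. The authors deposited signal intensities per probe set on a linear scale, for 4 arrays in 1 table, and the scale was read from the values. The mean after leaving out the lowest and highest 2% of rows was 200.0 on each array, so the authors had scaled the deposited intensities. The sources used here name neither software nor summary method and hold no detection calls, so dim signals have no bound.

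Of 22810 rows, 64 controls were left out. Of the other 22746 probe sets, 13513 were paired with 1 gene, 503 with several and 8730 with none in the platform annotation. Through gene identifiers 13436 probe sets matched 13286 loci of TAIR10.1, used only for names and gene order. For genes with several probe sets, the one with the highest mean signal was used.

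Signals were transformed as log2(signal + 16), which understates fold changes of dim probe sets, and jaw-D minus Columbia was fitted with limma 3.58.1 in R 4.3.3 (2 residual and 3.76 prior degrees of freedom), two-sided, with Benjamini-Hochberg adjustment over all 22746 and a threshold of 0.05. With 2 arrays a genotype, the smallest p of an exact permutation test is 0.333. The script was tested on simulated data. The number of arrays limits the precision.

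The naming rule took all 6 genes, every other measured gene of their family and neighbour lists, the 3 measured genes with the highest mean signal of each other list, and the 5 nearest profiles. AT2G38860 was named after its values were seen. Alternatives were quantile normalization, median centring, pseudocounts of 1 and 64, a filter on dim probe sets, an intensity trend, the replicate number as a block, and leaving out each array. Promoter and protein sequences were not used here, so the planned motif shares were not computed. No column was left unassigned. Figures were drawn with matplotlib 3.10.9.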

Additional observations from a re-analysis of the deposited data

How the results depend on the processing

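The median log2 difference of the 6 genes was 1.63 as reported and 1.26 with a pseudocount of 64. Without 1 array it ran from 1.60 to 1.74. The 43 calls over all probe sets became 0 with a pseudocount of 1 (2538 at an unadjusted p under 0.05), 291 (117 higher, 174 lower) over the brighter probe sets (mean signal not under the median), where fewer were tested, 103 with an intensity trend and 66 with the replicate block. They became 0 without each array in turn, where 1978 to 2492 had an unadjusted p under 0.05 and a lone array is assumed to vary like the other genotype. Called genes among the 40 measured relatives numbered 2 as reported, where 0.189% of all probe sets were called. They numbered 0 with a pseudocount of 1, where no probe set was called. With the replicate block they numbered 1, where 0.29% of all probe sets were called. Over the brighter probe sets only 17 of the relatives were tested and 4 were called, where 2.56% of the tested probe sets were called. The deviations of arrays with the same number had a correlation of -0.0743 over all probe sets, but in each genotype the 25S rRNA signal was brighter on array 1. What a shared number stands for is not given in the labels. Differences near 0 changed sign. With quantile normalization AT1G63550 had 0.03, AT1G53540 0.12, LHCB4.1 (AT5G01530) 0.01 and EXPA7 (AT1G12560) 0.12. Without 1 array CYS1 (AT5G12140) ran from -0.20 to 0.14, AT1G53060 from -0.19 to 0.42, AT1G53070 from -0.47 to 0.20, AT1G53540 from -0.17 to 0.09, AT2G19310 from -0.29 to 0.05, AT5G51440 from -0.33 to 0.47, AT1G65510 from -0.16 to 0.37, WRKY53 (AT4G23810) from -0.51 to 0.14, AT3G09440 from -0.06 to 0.24 and EXPA7 from -0.33 to 0.26. The causes were not tested. No member had another probe set of its own to try.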
